A study of Mus musculus with 6 samples.

Results

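Gap junction genes were followed across 6 mouse kidney cell lines on 1 Affymetrix array each. The set held 8 genes of the 18193 genes with a probe set of their own: the connexin genes Gja1, Gja4, Gja5, Gjb1, Gjb2, Gjb5 and Gjc1, and the pannexin gene Panx1. They were named as a list when results of these arrays were already known, and each gene was represented by a probe set selected on its mean signal over the 6 arrays, the highest being taken. Together the 8 genes had 15 probe sets, 6 of them for Gja1, 2 each for Gjb1 and Gjc1 and 1 for each of the others. Because the genes were listed with results in view, the p-values below describe these arrays and are not independent evidence.

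mpkCCD cells come from mouse kidney, from its cortical collecting duct, and the arrays asked which transcripts follow the level of the water channel aquaporin 2 (AQP2, gene Aqp2). By label, clone 2 lacked AQP2, while the original mpkCCD cells and 4 further clones (3, 9, 10 and 11) had it. Every line had received dDAVP, an analog of vasopressin, at 0.1 nM for 5 days, so no line without it was compared. Each line has 1 array and each clone is 1 clone, so p-values measure the spread between lines, in which differences of clone, of culture and of array cannot be told apart. No line had a spread of its own against which to set neighbouring levels. Median signals lay between 79.6 (clone 2) and 88.6 (clone 10) arbitrary units. Aqp2 itself had a signal of 159 in clone 2, against 1066 (clone 10), 1698 (clone 3), 3822 (original cells), 4683 (clone 9) and 6578 (clone 11).

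Connexins are membrane proteins that assemble into half-channels, and half-channels of neighbouring cells dock to form gap junctions, which pass ions and small messengers such as cyclic AMP between cells. Pannexin 1 is related to them in shape but mostly forms channels in the membrane of a single cell, through which ATP leaves the cell. In the kidney collecting duct, released ATP acts on purinergic receptors that dampen salt and water uptake, and connexins and pannexin 1 are among the channels studied as its exit route.

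The promoter windows of the genes on which the results turn are shown with the elements that link a gene to AP-1 or cyclic AMP signalling. Each window runs from 250 bases before to 50 bases after a gene start, read 5′ to 3′ on the gene's strand, from RefSeq on GRCm38.p6. Capitals mark matches, on both strands, to the AP-1 site TGANTCA and to the half-site TGACG of the cyclic AMP response element, whose full form TGACGTCA contains the half-site.
Gja1, chr10:56377050-56377349, plus strand: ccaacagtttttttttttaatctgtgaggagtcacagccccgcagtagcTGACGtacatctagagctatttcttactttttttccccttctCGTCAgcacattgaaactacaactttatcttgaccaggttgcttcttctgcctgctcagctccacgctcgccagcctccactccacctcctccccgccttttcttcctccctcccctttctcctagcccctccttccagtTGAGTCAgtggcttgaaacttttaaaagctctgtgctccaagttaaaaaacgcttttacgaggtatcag
Panx1, chr9:15045429-15045728, minus strand: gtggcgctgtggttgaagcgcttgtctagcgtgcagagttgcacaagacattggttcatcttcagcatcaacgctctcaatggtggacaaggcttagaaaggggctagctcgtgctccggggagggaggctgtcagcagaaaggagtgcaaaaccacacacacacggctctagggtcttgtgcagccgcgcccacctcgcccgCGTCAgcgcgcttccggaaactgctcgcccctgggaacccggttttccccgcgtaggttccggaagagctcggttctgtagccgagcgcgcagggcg
Aqp2, chr15:99578806-99579105, plus strand: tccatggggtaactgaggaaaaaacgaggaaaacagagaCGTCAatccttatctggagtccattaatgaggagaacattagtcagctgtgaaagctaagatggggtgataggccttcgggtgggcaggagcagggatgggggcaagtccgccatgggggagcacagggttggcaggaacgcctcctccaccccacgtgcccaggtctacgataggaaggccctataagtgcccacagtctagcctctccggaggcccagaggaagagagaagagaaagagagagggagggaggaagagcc
The Gja1 window held an AP-1 match starting 19 bases before the start and half-sites starting 201 and 159 bases before it. The Panx1 window held a half-site starting 47 bases before the start, and the Aqp2 window held one 211 bases before it. The windows of Gja4, Gja5 and Gjb2 also held a half-site, and those of Gjb1 and Gjb5 did not. No other gap junction gene held the AP-1 site in its window, and none held the full cyclic AMP response element. Over all 32851 windows in the table, 7.81% held the AP-1 site, 20.8% the half-site and 1.79% the full element, so the half-site was common. A window was found for 7 of the 8 genes, all but Gjc1. These matches are letters in a window and no binding was measured.

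Gja1 varied most among the AQP2-expressing lines and nearly followed the order of Aqp2. It encodes connexin Cx43, the most widely expressed connexin. Its signal was 9.57 in clone 2, against 164 (clone 10), 105 (clone 3), 307 (original cells), 683 (clone 9) and 830 (clone 11). Clone 2 lay below all expressing lines, among which clones 9 and 11 were high and clones 3 and 10 low. The highest expressing line exceeded the lowest by 7.91 times. On the scale log2(signal + 18.8), where the offset is the 25th percentile of all values and understates differences of low signals, the SD over the 5 expressing lines was 1.20. That SD was at or above those of 99.3% of the tested probe sets.

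**Figure D1:**
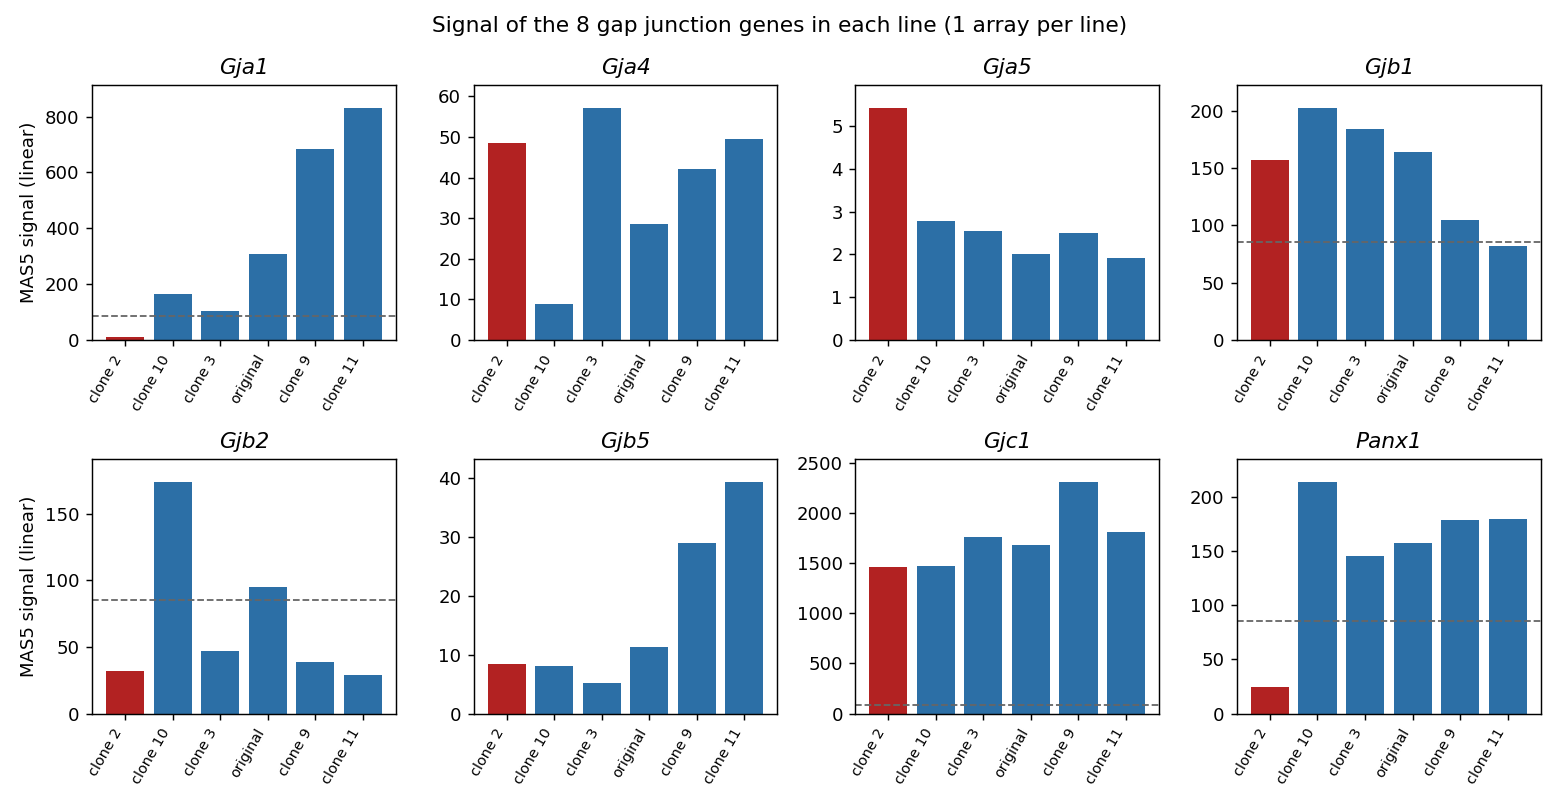
Deposited MAS5 signal (linear, arbitrary units) of the 8 genes in clone 2 (red) and in the 5 AQP2-expressing lines (blue), which run from left to right by Aqp2 signal; each bar is 1 array, so there are no error bars. The dashed line, where it falls within a panel, is the mean signal of 85.5 above which a probe set was tested; Gja1 climbs to 830 in clone 11 and Panx1 stands at 24.2 in clone 2.

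A slope on log2 Aqp2, fitted with limma over all tested probe sets, asked which transcripts follow Aqp2 across the 6 lines. Gja1 had a slope of 0.91 log2 units per log2 unit of Aqp2 (SE 0.0951, limma adjusted p = 0.0196), the third smallest of 22517 p-values. Across all tested probe sets 1.76% were called for this slope, and of the 4 gap junction genes past the filter and so tested 1 was called. Without clone 11 the slope of Gja1 was 0.87 and the limma adjusted p 0.0659, with 0 probe sets called in all (3900 at an unadjusted p under 0.05). The adjusted p was also above the threshold without the mean-variance trend (0.0593), a setting that left 1 probe set called in all. Over all alternatives, other probe sets included, it lay between 0.00758 and 0.166.

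As a correlation over the 6 lines, Gja1 had Pearson r = 0.96 with Aqp2 (exact permutation over all 720 pairings, two-sided p = 0.00556, Benjamini-Hochberg adjusted p = 0.219 over 22517 probe sets). Spearman's rho was 0.94 (exact permutation p = 0.0167, adjusted p = 0.311). The 720 pairings allow no p below 0.00139 for r and none below 0.00278 for rho. Without clone 2 and clone 11, the lines farthest from the median of Aqp2, r was 0.84 over 4 lines. In all, 1.2% of the tested probe sets had an absolute r at least as large as that of Gja1.

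Without clone 2, the slope of Gja1 was of similar size but was not called. Over the 5 expressing lines it was 1.001 (SE 0.188, limma unadjusted p = 0.00059, adjusted p = 0.193), the 65th smallest of 22517 p-values. With 3 residual degrees of freedom this fit called 3 probe sets in all, or 0.0133%, and 0 of the 8 genes were among them, with 2 of the 4 genes tested at an unadjusted p under 0.05, as were 11.5% of all tested probe sets. Of the 10 pairs of expressing lines, Gja1 ordered 9 as Aqp2 did, the exception being clones 3 and 10. At least 9 of 10 pairs were so ordered for 6.77% of the tested probe sets.

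The other probe sets of Gja1 had the same top and mostly the same bottom. Clone 11 was highest and clone 9 second in all 6 of them. Clone 2 lay below every expressing line in 5 of the 6. The exception, 1415801_at, had the lowest mean signal of the 6 and stood at 8.33 in clone 2, against 5.79 in clone 10 and 22.1 to 67.5 in the other expressing lines. The probe set behind the Gja1 values above, 1437992_x_at, is of the x type prone to cross-hybridisation, as are all others but 1415800_at and 1415801_at. In 1415800_at the signal was 16.1 in clone 2, against 174 (clone 10), 58.1 (clone 3), 177 (original cells), 403 (clone 9) and 555 (clone 11). Its slope over 6 lines was 0.70 (SE 0.128, limma adjusted p = 0.0364). Among the 5 probe sets of Gja1 past the filter only 1438973_x_at was not called for this slope (0.28, adjusted p = 0.166). Over the 5 expressing lines the 6 slopes were all positive, between 0.32 and 1.001, and either 9 or 10 line pairs ran in the order of Aqp2. The probe sets share the same RNA on the same arrays, so they check the probes and not the cells.

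**Figure D2:**
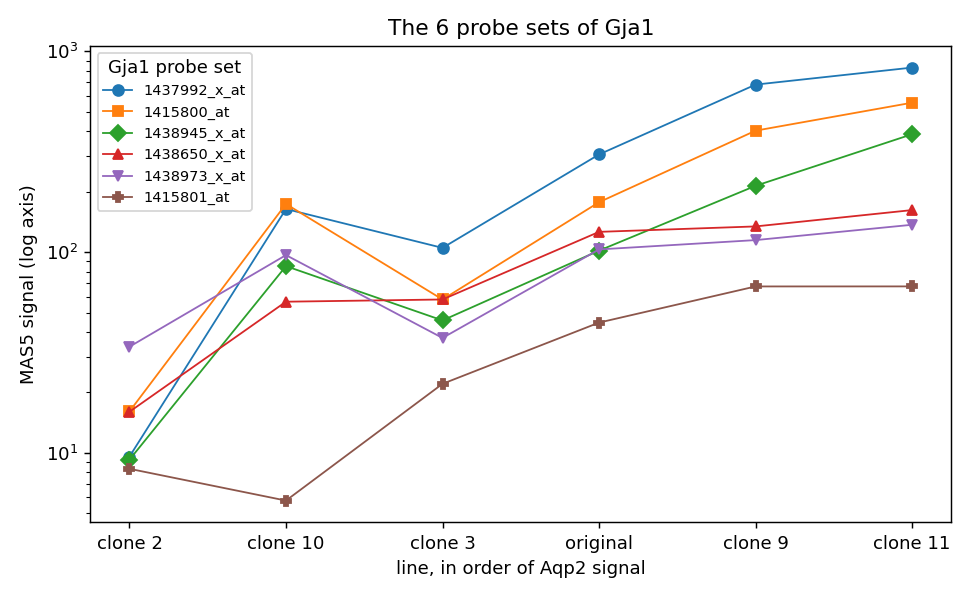
MAS5 signal (log axis) of the 6 Gja1 probe sets, each a line with its own marker, in clone 2 at the left and then the expressing lines by Aqp2 signal; each point is 1 array. Clones 9 and 11 are the top pair for all 6, and clone 3 dips below clone 10 in 4 of them.

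Against the expressing lines as a group, clone 2 had a large but uncalled difference in Gja1. The signal was 9.57 in clone 2 against 418 ± 322 in the expressing lines (SD, n = 5), and the log2 difference was -3.57 (SE 0.90, limma adjusted p = 0.0733). This was the largest difference among the 6 probe sets, the others having -2.74, -2.42, -1.76, -1.07 and, under the filter, -1.001. A doubled offset gave -2.94. The difference was called without clone 3 (-3.93, adjusted p = 0.0468) and with an offset of 0 (-5.03, adjusted p = 0.0377), and the adjusted p lay between 0.0377 and 0.292 over the alternatives, other probe sets included. On the clone 2 array 18.7% of probe sets had a signal no higher, and without detection calls no absence of Gja1 was shown. In these bulk RNA samples, fewer cells with the transcript and less of it per cell cannot be told apart.

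Panx1 was low in clone 2 and nearly level in the other lines. Its signal was 24.2 in clone 2, against 214 (clone 10), 145 (clone 3), 157 (original cells), 179 (clone 9) and 180 (clone 11). The mean of the expressing lines was 175 ± 26.2 (SD, n = 5), with a ratio of 1.47 between clones 10 and 3 at the extremes. In clone 2 the signal was under the filter, so no ratio to it is given. The log2 difference was -2.16 (SE 0.293, limma adjusted p = 0.0108), so Panx1 fell in clone 2. The size depended on the offset, from -1.77 with a doubled offset to -2.84 with none, and over the settings in which it was tested the adjusted p lay between 0.0068 and 0.0387. Panx1 was the 1 gene of the 4 tested that was called lower in clone 2, where 1.67% of all tested probe sets were, and 0 were called higher, where 0.817% were. With the arrays centred on their medians, the 376 lower and 184 higher calls over all probe sets became 232 and 254, and Panx1 was still called. Panx1 had a single probe set, so no second probe set could be set beside it.

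Within the expressing lines no slope of Panx1 on Aqp2 was detected. Its slope over 6 lines was 0.39 (SE 0.103, limma adjusted p = 0.0866), and without clone 2 it was -0.04 (SE 0.117, adjusted p = 0.924). It was highest in clone 10, where Aqp2 was lowest among the expressing lines, and 6 of 10 line pairs ran in the order of Aqp2. Over 6 lines r was 0.83 (exact permutation p = 0.107, adjusted p = 0.412), rho was 0.43 (exact permutation p = 0.419, adjusted p = 0.816), and r was -0.39 over 4 lines without clone 2 and clone 11. Without clone 10 the slope over the other lines, clone 2 included, was 0.44 and was called (limma adjusted p = 0.027, range over the alternatives 0.027 to 0.193). The slopes with and without clone 2 share 5 arrays and their difference was not tested.

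**Figure D3:**
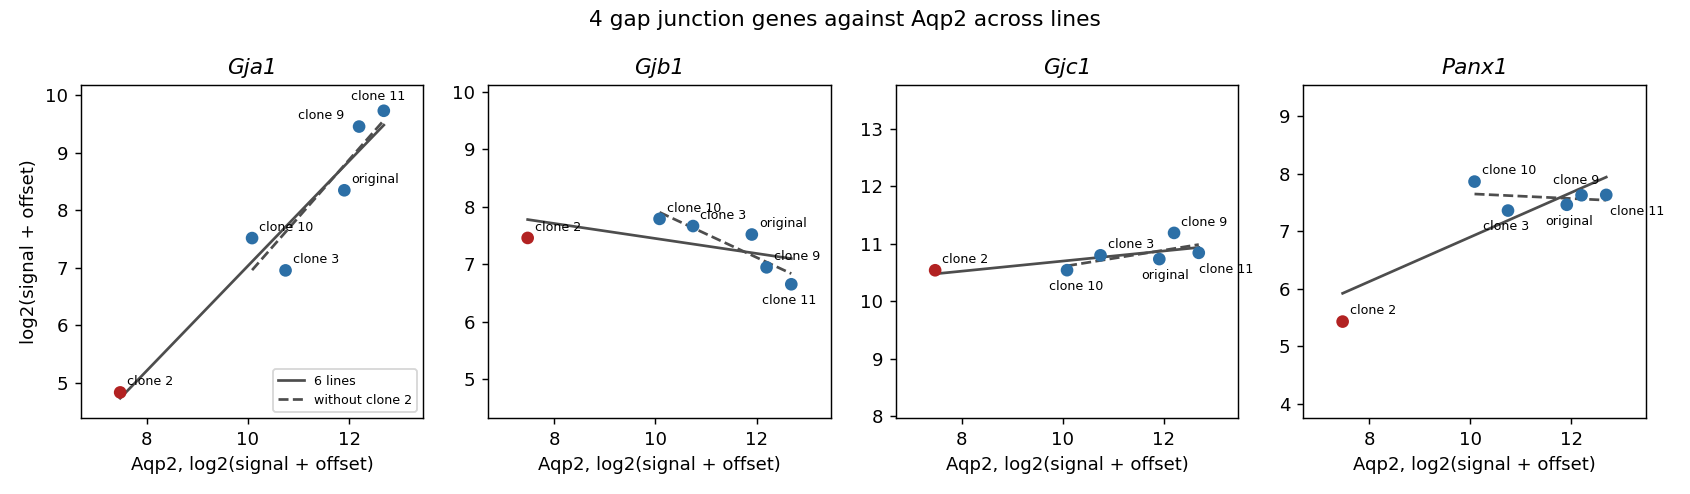
Log2(signal + 18.8) of Gja1, Gjb1, Gjc1 and Panx1 against that of Aqp2, 1 point per line, clone 2 in red and expressing lines in blue; the vertical axes span the same number of log2 units. Solid lines are the slopes over 6 lines (0.91, -0.13, 0.09 and 0.39) and dashed lines those without clone 2 (1.001, -0.41, 0.14 and -0.04).

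Gjb1 ran opposite to Aqp2 among the expressing lines. It encodes Cx32, the connexin of hepatocytes and of the myelinating Schwann cell. Its signal was 157 in clone 2, against 202 (clone 10), 184 (clone 3), 164 (original cells), 104 (clone 9) and 81.6 (clone 11). Clone 2 lay within the range of the expressing lines (mean 147 ± 52, SD, n = 5), and the log2 difference was 0.14 (SE 0.435, limma adjusted p = 0.889). Among the expressing lines the order was the reverse of that of Aqp2, with 0 of 10 line pairs ordered alike, as in 1.41% of the tested probe sets. The slope without clone 2 was -0.41 (SE 0.13, limma unadjusted p = 0.013, adjusted p = 0.318). The slope with all 6 lines was -0.13 (adjusted p = 0.424), r was -0.56 (exact permutation p = 0.25, adjusted p = 0.559) and rho -0.66 (exact permutation p = 0.175, adjusted p = 0.603). Without clone 2 and clone 11, r was -0.85 over 4 lines. The other probe set, 1448766_at, had 143 in clone 2, against 130 (clone 10), 142 (clone 3), 97.4 (original cells), 103 (clone 9) and 75.8 (clone 11). There clone 2 lay just above every other line and 2 of 10 line pairs ran in the order of Aqp2, with a slope of -0.25 without clone 2 (adjusted p = 0.503).

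Gjc1, by its brightest probe set, had the smallest fold range among expressing lines of the 3 connexin genes tested. It encodes Cx45, known from the heart's conduction system and smooth muscle. Its signal was 1466 in clone 2, against 1467 (clone 10), 1759 (clone 3), 1680 (original cells), 2311 (clone 9) and 1813 (clone 11). Clone 2 and clone 10 were almost level and lowest, and clone 9 was highest. The clone 2 difference on the log2 scale was -0.28 (SE 0.217, limma adjusted p = 0.502). The slope on Aqp2 was 0.09 over 6 lines (SE 0.0416, adjusted p = 0.28) and 0.14 without clone 2 (SE 0.0792, adjusted p = 0.539). Over 6 lines r was 0.70 (exact permutation p = 0.124, adjusted p = 0.434) and rho 0.89 (exact permutation p = 0.0333, adjusted p = 0.364), and r was 0.78 over 4 lines without clone 2 and clone 11. The second probe set, 1447787_x_at, varied more, with 352 in clone 2, against 288 (clone 10), 550 (clone 3), 626 (original cells), 1239 (clone 9) and 653 (clone 11). Its slopes were 0.27 over 6 lines (adjusted p = 0.151) and 0.52 without clone 2 (limma unadjusted p = 0.0122, adjusted p = 0.313). Both probe sets put clone 9 highest, and neither was called. Of the 10 pairs of expressing lines, 8 ran in the order of Aqp2 for the brightest probe set and 9 for the second. At least 8 pairs were so ordered for 15.8% of the tested probe sets and at least 9 for 6.77%.

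The 4 remaining genes had mean signals below 85.5, the median over all probe sets, and were not tested. Gjb1, at a mean of 149, was the lowest of the 4 genes past that limit, and Gjb2, at 69.3, the highest of those under it. Gja1 and Panx1 had clone 2 signals under that limit, so they passed through the expressing lines. Their log2 differences in clone 2 were -3.57 and -2.16, beside -0.28 for Gjc1 and 0.14 for Gjb1. No shift of the genes as a group is read from these values.

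Gjb2 was highest in clone 10 and next highest in the original cells. It encodes Cx26, a connexin of the inner ear and skin whose mutations are a common cause of inherited deafness. The signal was 31.9 in clone 2, against 174 (clone 10), 47 (clone 3), 95.2 (original cells), 39 (clone 9) and 28.8 (clone 11). Clone 2 lay within the range of the expressing lines, and clone 10 exceeded clone 11 by 6.04 times. Only 1 of 10 pairs of expressing lines ran in the order of Aqp2.

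Gjb5, a connexin gene of skin and placenta in the mouse, was low throughout but stood higher where Gja1 was highest. Its signal was 8.47 in clone 2, against 8.06 (clone 10), 5.19 (clone 3), 11.2 (original cells), 28.9 (clone 9) and 39.4 (clone 11). Of the 10 pairs of expressing lines 9 ran in the order of Aqp2, as for Gja1. Even its highest signal was only at the 36.4th percentile of all probe sets on that array.

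Gja4 and Gja5 encode Cx37 and Cx40, the connexins of arterial endothelium, and Cx40 is also found in the renin-producing cells of the kidney. Gja4 had a signal of 48.5 in clone 2, against 8.95 (clone 10), 57.1 (clone 3), 28.6 (original cells), 42 (clone 9) and 49.4 (clone 11). Gja5 had 5.43 in clone 2, against 1.92 to 2.78 in the expressing lines, and never passed the 13.2th percentile of an array. Clone 2 lay above all other lines in Gja5. Of 7 endothelial marker genes measured, 0 had a mean signal past the filter, and their summed signal was 335 in clone 2 against 211 to 311 in the expressing lines, with Flt1 at 103 in clone 2 against 15.3 to 107 and Plvap at 86.7 against 10.1 to 87.1. Pecam1, the lowest of the 7, lay between 2.92 and 6.77 in all 6 lines.

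Over all 8 genes, clone 2 lay below every expressing line for 3 (Gja1, Gjc1 and Panx1), above them for Gja5 and within their range for the other 4. Over all 45037 probe sets, clone 2 lay below the range for 24.5% and above it for 18.9%, and nothing is read from counts of 3 and 1 among 8 genes. The position of Gjc1 rests on a signal of 1466 in clone 2 against 1467 in clone 10. Its second probe set put clone 2 within the range, at 352 against 288 in clone 10, as did 1415801_at for Gja1. Across the 6 lines, Gjb5 had r = 0.78 with Gja1 and -0.97 with Gjb1. Gja5 had r = -0.93 with Panx1, and Gja4 had r = -0.93 with Gjb2. Among the tested genes, Gja1 had r = 0.81 with Panx1, 0.71 with Gjc1 and -0.66 with Gjb1. Gjb1 had r = -0.64 with Gjc1 and -0.14 with Panx1, and Gjc1 had r = 0.43 with Panx1. Gja4, Gja5, Gjb2 and Gjb5 were under the filter, and Gja5 had only 5.43 in clone 2 against 1.92 to 2.78 in the other lines. These correlations of log2 values share the same 6 arrays and are given as a description.

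The median difference of clone 2 varied by chromosome, so each tested gap junction gene was set beside the tested genes of its own chromosome, as placed in GRCm38.p6. Gja1 lies on chromosome 10, where the median log2 difference of 514 genes was -0.24, and 0.389% of those genes were as low as Gja1 or lower. Panx1 lies on chromosome 9, whose 575 genes had a median of -0.02, and 0.348% were as low or lower. Gjb1 is X-linked. The 297 X-linked genes had a median of 0.47 in clone 2, and the 0.14 of Gjb1 lay at their 18.9th percentile. Gjc1 lies on chromosome 11, with a median of 0.12 over 898 genes, against its own -0.28.

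**Figure D4:**
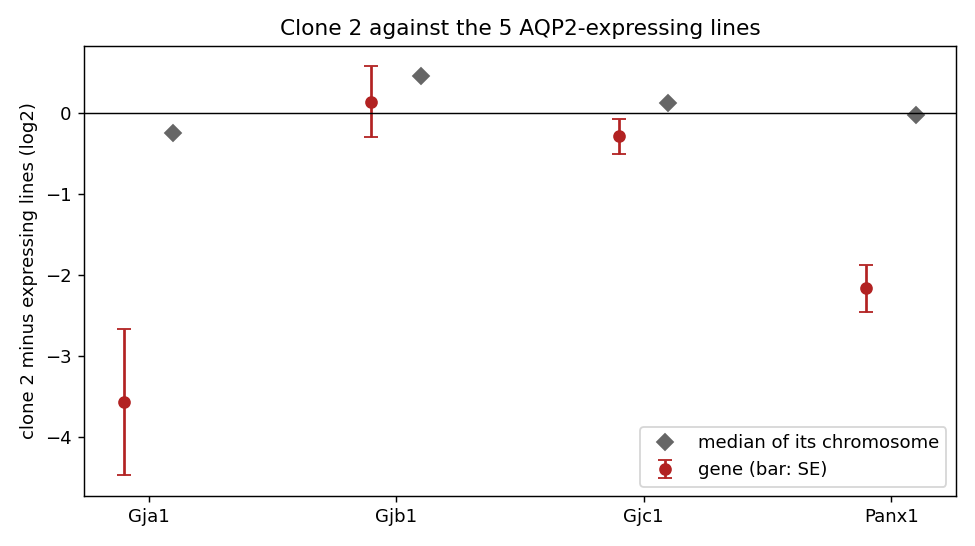
Log2 difference of clone 2 minus the mean of the 5 AQP2-expressing lines (red circles, bars are the SE from limma) for the 4 genes tested, beside the median of the same difference over the tested genes of each gene's chromosome (grey diamonds). Gja1 (-3.57) and Panx1 (-2.16) lie far below their chromosomes' medians (-0.24 and -0.02), while Gjb1 (0.14) and Gjc1 (-0.28) lie less than 0.5 from zero.

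The genes whose pattern over the 6 lines was most like each gap junction gene, by Pearson r of log2 values among 10341 other genes, give a picture of what moves alongside. For Gja1 they were the small GTPase gene Rab12 (r = 0.997), Fam76b (0.995) and Cox7a2l (0.991), a mitochondrial respiratory chain assembly factor, and Aqp2 came 85th. Rab12 had a signal of 478 in clone 2, against 785 (clone 10), 693 (clone 3), 846 (original cells), 1056 (clone 9) and 1068 (clone 11), the same order as Gja1. For Panx1 they were Apc2, Plcg2, a phospholipase C, and the antisense transcript gene Hoxd3os1 (r = 0.996, 0.995 and 0.995), each lower in clone 2 than in every other line. Plcg2 had 323 in clone 2 against 707 to 881 in the expressing lines. For Gjb1 they were Bbs7, a gene of the ciliary BBSome, Zfp202 and Shld1 (r = 0.98 to 0.99), and for Gjc1 they were Pias2, Cdk19 and Tubb5 (r = 0.99 for all 3), the last a beta-tubulin. These likenesses over 6 lines are descriptions with no test.

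Of the remaining connexins and pannexins, 9 of 15 listed genes had a probe set of their own and 0 of them had a mean signal past the filter. Their summed signal was 116 in clone 2, against 148 to 205 in the expressing lines. Panx3 had 47.3 in clone 2 against 0.71 to 46.2 in the expressing lines, and Gja10 had 1.69 against 16.3 to 37.5. Gjb6, which encodes Cx30, a connexin of intercalated cells, had 18.7 in clone 2 against 1.95 to 37.3.

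Among genes whose proteins bind connexins or hold cells together, 1 was called, the N-cadherin gene Cdh2. Of 16 tested scaffold and adherens genes 0 passed in the clone 2 comparison by limma, with 6 at an unadjusted p under 0.05, beside 20% of all tested probe sets. For the slope over 6 lines 1 passed, Cdh2, beside 1.76% of all tested probe sets. At an unadjusted p under 0.05 there were 7, beside 19.9% of all tested probe sets. For the slope without clone 2, 0 passed by limma, with 6 at that unadjusted p, beside 11.5%. Cdh2 had a signal of 3.62 in clone 2, against 81.4 (clone 10), 428 (clone 3), 302 (original cells), 1623 (clone 9) and 593 (clone 11). Its clone 2 signal was under the filter, which it passed through the expressing lines. Its slope was 1.04 (limma adjusted p = 0.0255), and without clone 2 it was 1.02 (adjusted p = 0.314). With clone 11 left out, the slope fit over the other lines called 0 probe sets in all. Without the mean-variance trend the 1 probe set called had a negative slope, so Cdh2 was called in neither setting. The catenin genes Ctnnb1 and Ctnna1, whose proteins tie cadherins to actin, had log2 differences of -0.15 (adjusted p = 0.488) and -0.14 (adjusted p = 0.591) in clone 2. Tjp1, the scaffold ZO-1 that binds the tail of Cx43, had 4617 in clone 2 against 4102 ± 270 (SD, n = 5; adjusted p = 0.5). Cnst, which encodes consortin, a receptor that sorts connexins to the membrane, had 467 against 780 ± 61.8 (log2 difference -0.71, adjusted p = 0.0671).

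Kinases and turnover factors of connexins, regulators of Gja1 and genes of ATP signalling held no called gene. Of 16 kinase and turnover genes tested, 0 passed in the clone 2 comparison or for either slope by limma, with 2, 3 and 6 at an unadjusted p under 0.05 in the clone 2, 6-line and 5-line fits. Over all tested probe sets the shares at that unadjusted p were 20%, 19.9% and 11.5% in these fits. The ubiquitin ligase Nedd4, which acts on Cx43, had 6465 in clone 2 against 8474 ± 1337 (SD, n = 5), and Sqstm1, an autophagy adaptor, 6918 against 6655 ± 482. Of 9 tested regulators of Gja1, 0 passed in any of the 3 fits, with 1, 2 and 3 at an unadjusted p under 0.05, to be read beside the same shares. Among them, Sp1 stood at 6203 in clone 2 against 6967 ± 585, and Jun, a partner in AP-1, at 3275 against 3196 ± 486. Of 4 tested genes of ATP release and purinergic signalling, 0 passed by limma, with 1 at an unadjusted p under 0.05 in each fit, beside the same shares. The ATP receptor gene P2rx4 had 646 in clone 2 against 573 ± 38.7, and the ATP-degrading Entpd2 818 against 488 ± 136 (log2 difference 0.77, adjusted p = 0.241).

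Principal cells are the AQP2-bearing cells of the collecting duct, and their markers were set beside those of other cell types. Of 10 tested principal cell markers 3 fell in clone 2, beside 1.67% of all tested probe sets, namely Aqp2 (log2 difference -4.05, limma adjusted p = 0.0388, between 0.0174 and 0.157 over the alternatives), Fxyd4 (781 against 3481 ± 745, SD, n = 5; limma adjusted p = 0.0098) and Gata3 (2109 against 3807 ± 148, adjusted p = 0.0146). The label set clone 2 apart by its lack of AQP2, so the fall of Aqp2 adds nothing to this count. Aqp3 and Avpr2 ran the other way, uncalled, at 192 in clone 2 against 117 ± 21.5 and at 1742 against 1610 ± 128 (SD, n = 5). Scnn1a, Scnn1b, Scnn1g, Hsd11b2 and Tfcp2l1 were lower in clone 2 than the mean of the expressing lines but were not called. The sum of the 12 markers, Aqp2 included, was 12451 in clone 2 against 21491 to 28505 in the expressing lines. The intercalated cell markers (6 measured) summed to 1108 in clone 2 against 762 to 1102 in the expressing lines, and of the 2 tested the water channel gene Aqp6 fell (39.0 against 281 ± 44.3, SD, n = 5; limma adjusted p = 0.00648). Aqp6 passed the filter through the expressing lines only, so nothing is read from the count. The other tested gene, Atp6v1b1, ran the other way, uncalled, at 949 in clone 2 against 585 ± 107 (SD, n = 5). It made up most of the intercalated sum in clone 2. The 8 fibroblast and smooth muscle markers summed to 349 in clone 2 against 263 to 392, and only Acta2 passed the filter (adjusted p = 0.962). The 5 leukocyte markers measured summed to 723 in clone 2 against 236 to 486, of which Cd68, the 1 gene past the filter, made up 619 in clone 2 (adjusted p = 0.156). How far such differences between the lines enter the values of Gja1 and Panx1 was not tested.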

How the data were processed

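Gene expression was measured in 6 mpkCCD lines, 1 array each. The authors deposited 1 linear signal intensity per probe set; per the submitters' processing notes, the tools were MAS5 and Affymetrix Expression Console 1.1. With 2% trimmed at each end the mean was 500 on every array, which shows a common scaling, whose target is not given in the sources used here. Because MAS5 takes mismatch probes into account, differences between low signals are unsteady. Detection calls were not used.

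Control probe sets (64) were left out. Of 45037 probe sets, 34945 had 1 gene in the platform annotation, 932 several and 9160 none, and symbols were updated by gene identifier to GRCm38.p6 (34741 matched). Signals were used as log2(signal + 18.8). Probe sets with a mean signal above 85.5, the median, were tested. These 22518 probe sets covered 10342 genes and included probe sets without a single annotated gene. All fits ran across all of them with limma 3.58.1 in R 4.3.3 (lmFit, eBayes with trend), two-sided, with Benjamini-Hochberg adjusted p under 0.05 as the threshold. The Aqp2 probe set was the predictor of the slope and left out there. The fits had 4 residual degrees of freedom over 6 lines and 3 over 5 lines. Clone 2, a single array, was assumed to vary like the other lines. The fitting steps were tested on simulated data.

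The gene set, the lists and the rules were chosen with earlier results of these data known. The rules named every member, the 3 genes most correlated with each tested member, and up to 4 called genes per list or, with none called, the 2 of highest mean signal. Tjp1, Cnst, Gjb6, Pecam1 and the pairs of correlated members fall outside these rules and were named after their values were seen. Replicate numbers are names and pair no samples.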

Additional observations from a re-analysis of the deposited data

How the results depend on the processing

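Alternatives covered the offset (0, doubled), the filter (none, 75th percentile), scaling (quantiles, medians), eBayes (no trend, robust), leaving out each expressing line, and a gene's other probe sets. Called probe sets in the clone 2 comparison numbered 560, 210 with no filter and 219 without trend. They were 321 without clone 3, 942 without clone 9, 350 without clone 10, 251 without clone 11 and 156 without the original cells. For the slope over 6 lines they numbered 397, 51 with no filter, 1 without trend, and 189, 255, 655, 0 and 99 as the same lines were left out in that order. For the slope over 5 lines there were 3, with 5 in a robust fit and 14 without clone 9. There were 0 in limma with no filter (3945 at an unadjusted p under 0.05), at the 75th percentile (1586), without trend (2367), without clone 11 (2971) and without the original cells (2222).

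Of the gap junction genes, 1 was called in the clone 2 comparison, 2 with an offset of 0, and between 1 and 2 with a line left out. For the slope over 6 lines 1 was called, 0 without trend, and between 0 and 2 with a line left out. At the 75th percentile 0 were called in both, because only Gjc1 was still tested. Over 5 lines 0 were called in any setting. The sign of the clone 2 difference of Panx1 and of both slopes of Gja1 held in every setting. The slope of Panx1 without clone 2 was 0.15 when clone 10 was also left out, against -0.04. Beyond the fewer genes or lines that some settings use, the cause was not tested. No paired analysis was possible because each line has 1 array and no label pairs the lines.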
